A study of Mus musculus with 29 samples.

Results

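Ly6C-low and Ly6C-hi macrophages sorted from the liver of RNase T2-deficient mice were compared gene by gene, to describe how the 2 subsets differ within a deficient organ. The comparison used 6 of the 29 RNA-seq libraries of the series, 3 of each subset, chosen by organ, genotype and sorted subset as the labels give them. Wild-type Kupffer cells and the same subsets of wild-type liver and Rnaset2-/- spleen served only as references. All mice of the 6 libraries carried deletions of both mouse genes for RNase T2, Rnaset2a and Rnaset2b, here written Rnaset2-/- after the labels. They came from the study's colony, whose wild-type mice were C57BL/6, and received no treatment. Their ages are not given in the sources used here. Per the labels, the Ly6C-hi gate was CD11b(+), Ly6G(-), SiglecF(-) and NK1.1(-), and the Ly6C-low gate added Fcgr4(+), an activating receptor for IgG. The methods of the study describe the liver sort otherwise, on F4/80, CD11b, CD16.2 (the product of Fcgr4), Ly6C and other antigens, with no stain for Ly6G, SiglecF or NK1.1, and they print 1 gate, low in Ly6C and high in CD16.2, for both subsets. The subsets are named here by the labels, and which gate was used could not be settled. Both genes for RNase T2 and the genes for Ly6C were not analysed here, and Fcgr4 was used in the Ly6C-low gate, so its difference is no finding and checks the sort only as far as the labelled gate holds. Nothing in the labels says whether a replicate number stands for 1 mouse, a pool of mice or a day of sorting. The p-values therefore measure the spread between these libraries, which may be technical in part.

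RNase T2 cuts RNA inside endosomes and lysosomes, where the mouse receptors TLR3, TLR7 and TLR13 sense RNA. Ly6C-hi monocytes leave the bone marrow through CCR2 and enter tissues, where they can become macrophages or Ly6C-low cells that survey blood vessels. Kupffer cells are the resident macrophages of the liver sinusoids, take up blood-borne particles, dying cells and aged erythrocytes, and depend on the nuclear receptor LXRα, encoded by Nr1h3, for much of their gene program. The Rnaset2-/- mice of the study have an enlarged liver and spleen.

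Levels are given in RPM, that is reads scaled to a fixed total per library, as deposited, from a panel of primer pairs that amplifies a short stretch of each transcript, so levels were compared between libraries and not between genes. Each of the 6 libraries held 12850522 to 13060965 reads, detected 13305 to 15017 genes, and had a floor of 3 reads at 0.2297 to 0.2335 RPM. The labelled cell type was checked on 12 markers of macrophages and monocytes, which summed to 7602 to 15007 RPM in Ly6C-low and to 24149 to 34361 RPM in Ly6C-hi. The gap between these sums came from the lysozyme gene Lyz2, since the other 11 markers summed to 9067, 7959 and 6771 RPM in Ly6C-low replicates 1 to 3 and to 7045, 6973 and 6699 RPM in Ly6C-hi replicates 1 to 3. Of the 12 markers 1 was called higher and 1, Lyz2, lower, and the median log2 difference was 0.63. The receptor for colony-stimulating factor 1, Csf1r, was at 1651, 1291 and 665 RPM in Ly6C-low replicates 1 to 3 and 1139.7, 1294 and 1363 RPM in Ly6C-hi replicates 1 to 3, and Itgam, which encodes CD11b, was at 630.0 to 1343 RPM. Replicate 1 of both subsets stood apart from replicates 2 and 3. The first principal component of the 6 libraries took 60.7% of the variance and separated the subsets, while the second took 24.6% and placed replicate 1 at 35.68 (Ly6C-low) and 58.39 (Ly6C-hi) against values between -14.81 and -33.08 for the other 4 libraries. Across genes, Ly6C-hi replicate 1 correlated as closely with Ly6C-low replicate 1 (r = 0.923) as with Ly6C-hi replicate 2 (r = 0.924), whereas Ly6C-hi replicates 2 and 3 correlated at r = 0.983.

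The test covered the 10895 genes that reached 1 RPM in 3 or more of the 6 libraries. RPM were divided by a scaling factor per library (relative log expression) and compared as log2(value + 1) with limma, two-sided, so that the log2 differences of low genes are understated. A gene was called at more than 1.5-fold with an adjusted p below 0.05 by the Benjamini-Hochberg method over all tested genes. By this rule Ly6C-low had 953 higher genes (8.75%) and 900 lower ones (8.26%), together 17% of those tested. The counts of the gene lists below are to be read against these shares. Without regard to a test, all 3 Ly6C-low values lay above all 3 Ly6C-hi values for 1710 genes (15.7%) and below them for 2479 genes (22.8%). Of all tested genes, 226 passed the filter through the Ly6C-hi libraries alone and 47 through the Ly6C-low libraries alone. Such genes had to differ, so that counts over them are descriptions.

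The deviations of same-numbered libraries from their group means were correlated (r = 0.526, 0.233 and 0.459 for replicates 1 to 3). Ly6C-low replicate 3 and Ly6C-hi replicate 2 correlated at 0.286, so that the pairing of replicates 2 and 3 is uncertain. In a fit with the replicate number as a block 1433 genes (13.2%) were higher and 1702 (15.6%) lower. The calls rested on replicates 2 and 3. Leaving out Ly6C-hi replicate 2 left 258 higher and 187 lower genes, leaving out Ly6C-hi replicate 3 left 286 and 196, leaving out Ly6C-low replicate 2 left 304 and 284, and leaving out Ly6C-low replicate 3 left 376 and 436. Leaving out Ly6C-low replicate 1 left 756 and 798, and leaving out Ly6C-hi replicate 1 gave 1238 and 1086. When replicate 1 of both subsets was left out, 1498 genes were higher and 1244 lower of 10303 tested. When replicate 2 or replicate 3 of both was left out, limma called 0 genes, also in every gene list described here. Without replicate 2 of both, 929 genes were higher and 772 lower at an unadjusted p below 0.05, and DESeq2 called 361 and 373. Without replicate 3 of both, those counts were 1018 and 943 in limma, and DESeq2 called 436 and 587. With RPM left unscaled, 667 genes were higher and 1052 lower, and the median log2 difference of all tested genes was -0.17 in place of -0.02.

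**Figure D1:**
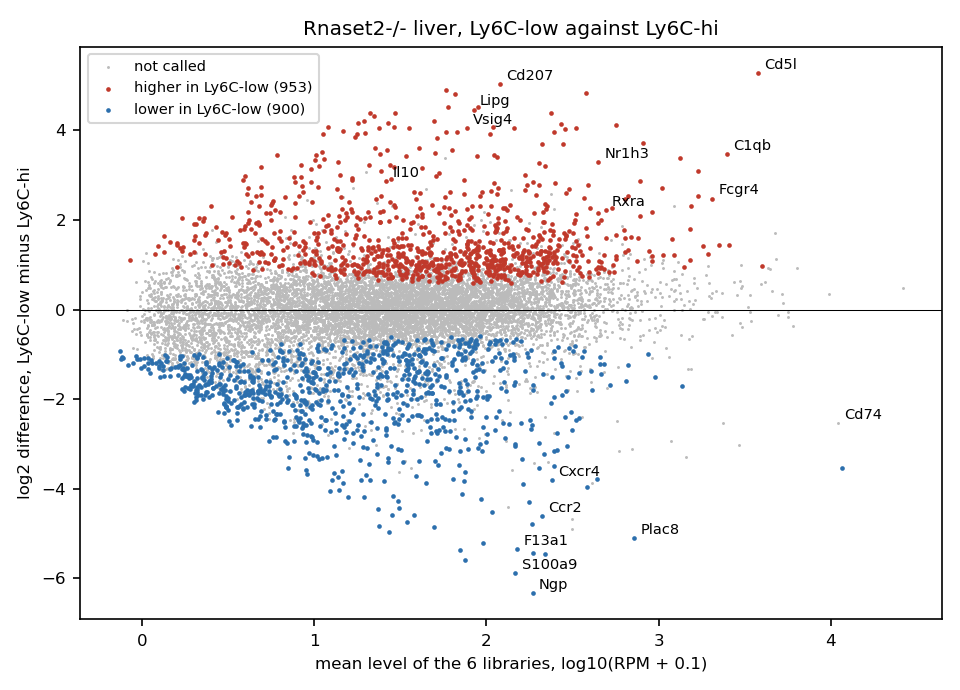
Log2 difference between Ly6C-low and Ly6C-hi cells of Rnaset2-/- liver (vertical axis) against the mean level of the 6 libraries, log10(RPM + 0.1) (horizontal axis), 1 point for each of the 10895 tested genes. Red points are the 953 genes called higher and blue points the 900 genes called lower in Ly6C-low; Cd5l and Cd207 stand at the top at 5.28 and 5.03, and Ngp at the bottom at -6.33.

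The genes that differed most were led by Cd5l, a secreted scavenger protein of tissue macrophages. Cd5l stood at 9639, 6753 and 5478 RPM in Ly6C-low replicates 1 to 3 and 348, 152 and 159 RPM in Ly6C-hi replicates 1 to 3. All 3 Ly6C-low libraries lay far above the 3 Ly6C-hi libraries, and replicate 1 was the highest in both subsets. The log2 difference was 5.28 ± 0.43 (SE, n = 3 libraries per subset) with an adjusted p of 0.00215 in limma. In this bulk RNA, a larger share of cells that express a gene and more RNA of that gene per cell cannot be told apart, here and in every result that follows. Cd207, which encodes the C-type lectin langerin, was at 189.7, 318 and 193 RPM in Ly6C-low replicates 1 to 3 and 6.99, 5.95 and 7.31 RPM in Ly6C-hi replicates 1 to 3. The Ly6C-hi libraries lay close to each other and the 2 ranges were far apart, with a log2 difference of 5.03 ± 0.24 and an adjusted p of 0.000596. Lipg, the endothelial lipase that hydrolyses phospholipids of HDL, was at 74.8, 264 and 146 RPM in Ly6C-low replicates 1 to 3 and 3.69, 9.42 and 6.77 RPM in Ly6C-hi replicates 1 to 3. Replicate 2 was the highest and replicate 1 the lowest in both subsets, and the groups did not overlap, with a log2 difference of 4.47 ± 0.46 and an adjusted p of 0.00323.

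The other 9 genes of the 12 with the largest rise were Tmc3, a member of the transmembrane channel-like family (log2 difference 4.91), Adamdec1, a metalloprotease of macrophages and dendritic cells (4.84), C6, a component of the complement membrane attack complex (4.82), Rims3, a protein of exocytosis (4.53), Klra17, a Ly49 family receptor (4.52), Ptprm, a receptor tyrosine phosphatase (4.40), Hs3st2, a heparan sulfate sulfotransferase (4.40), Raver2, an RNA-binding protein (4.38), and AI606473 (4.33). Raver2 varied least, at 51.2, 70.04 and 47.8 RPM in Ly6C-low replicates 1 to 3 and 1.92, 2.01 and 2.0 RPM in Ly6C-hi replicates 1 to 3. C6 varied most, at 294, 37.7 and 51.8 RPM in Ly6C-low replicates 1 to 3 and 5.68, 0.850 and 1.77 RPM in Ly6C-hi replicates 1 to 3, since its replicate 1 was several times replicates 2 and 3 in each subset. Of these 12 genes, only C6 lost its call when a single library was left out, namely Ly6C-hi replicate 2 or Ly6C-hi replicate 3. Fcrl5, an Fc receptor-like protein best known from B cells, belonged to the Fc receptor list and rose by 4.15 ± 0.58 on the log2 scale, from 11.6, 58.4 and 30.5 RPM in Ly6C-hi to 255, 818 and 450.0 RPM in Ly6C-low. The gate gene Fcgr4 was at 2577, 4451 and 3118 RPM in Ly6C-low replicates 1 to 3 and 445, 1021 and 639.8 RPM in Ly6C-hi replicates 1 to 3, with the Ly6C-low libraries above the Ly6C-hi libraries.

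Many genes that mark Kupffer cells were higher in Ly6C-low. The test covered 23 of the 24 listed genes, and 13 of them were higher while 10 were not called, with a median log2 difference of 2.67 against -0.02 over all tested genes. Vsig4, the complement receptor by which Kupffer cells bind opsonised particles, was at 226, 108 and 102 RPM in Ly6C-low replicates 1 to 3 and 11.3, 7.18 and 6.62 RPM in Ly6C-hi replicates 1 to 3. Clec4f, a C-type lectin that marks Kupffer cells in the mouse, was at 63.3, 17.7 and 53.1 RPM in Ly6C-low replicates 1 to 3 and 3.53, 1.78 and 4.08 RPM in Ly6C-hi replicates 1 to 3. Every Ly6C-low library lay above every Ly6C-hi library for both genes, which rose by 4.05 ± 0.38 and 3.47 ± 0.52 on the log2 scale (adjusted p = 0.00271 and 0.00789). The list also held C6, Pcolce2, which enhances procollagen processing (4.06), and Slc40a1, the iron exporter ferroportin (2.84). Timd4, which encodes the phosphatidylserine receptor Tim4, part of the Kupffer cell gate in the labels, was at 66.8, 10.04 and 13.02 RPM in Ly6C-low replicates 1 to 3 and 7.29, 2.01 and 0.923 RPM in Ly6C-hi replicates 1 to 3. The Ly6C-low values lay above the Ly6C-hi values, but Timd4 was not called (log2 difference 2.70 ± 0.82, adjusted p = 0.062), and with the replicate block it was (adjusted p = 0.00116). Marco, a scavenger receptor, was at 758, 8.33 and 16.3 RPM in Ly6C-low replicates 1 to 3 and 41.8, 4.09 and 1.85 RPM in Ly6C-hi replicates 1 to 3, where Ly6C-hi replicate 1 exceeded Ly6C-low replicates 2 and 3, and it was called only with the block (adjusted p 0.321 without and 0.00861 with it). Cd163, the hemoglobin scavenger receptor, was at 3.54, 0.156 and 1.30 RPM in Ly6C-low replicates 1 to 3 and 0.461, 0.618 and 2.0 RPM in Ly6C-hi replicates 1 to 3, and the subsets overlapped. The block raised the count of the list to 19 higher genes, as did leaving out replicate 1 of both subsets. Leaving out Ly6C-hi replicate 2 or 3 lowered it to 8 or 7.

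The levels of these genes in Ly6C-low cells lay at various distances from those in sorted wild-type Kupffer cells, of which the series had 4 libraries. These references also held markers of sinusoidal endothelium at sums of 4332 to 11048 RPM and of hepatocytes at 1873 to 6220 RPM, and the part of such RNA in their levels was not tested. They came from female cells by Xist, at 647 to 949 RPM, whereas Xist was listed at 0 in the 3 Rnaset2-/- Ly6C-low libraries, so that sex and genotype cannot be told apart here. Cd5l, at 7289.9 ± 2132 RPM (SD, n = 3) in Rnaset2-/- Ly6C-low cells, was at 6345 ± 2854 RPM (n = 4) in Kupffer cells and at 54.8 ± 13.8 RPM (n = 3) in wild-type hepatic Ly6C-low cells. Clec4f, by contrast, was at 44.7 ± 23.9 RPM in Rnaset2-/- Ly6C-low cells and at 4197 ± 1709 RPM in Kupffer cells, and Vsig4 was at 145 ± 69.6 and 2218 ± 789 RPM. Fcrl5 and Lipg were at 2.33 ± 1.02 and 0.291 ± 0.276 RPM in Kupffer cells, below every Rnaset2-/- Ly6C-low library. Among the 840 genes called higher that had no overlap and a mean of at least 10 RPM in Ly6C-low, the Kupffer cell mean was at or above the Ly6C-low mean for 229. For 7 of the 840 (Lipg, Hs3st2, AI606473, Ociad2, Itgad, 1700003M07Rik and Btnl4) all 3 wild-type liver groups had a mean under 1 RPM.

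**Figure D2:**
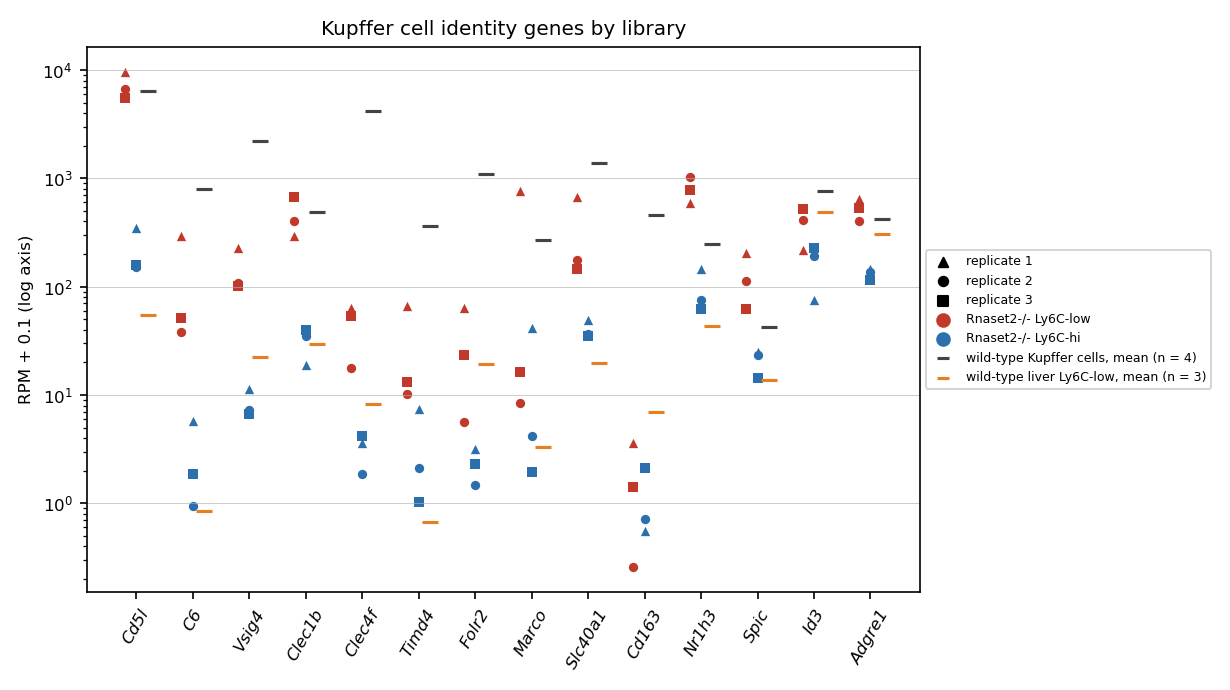
Levels of 14 Kupffer cell genes, in RPM + 0.1 on a log axis, in each Ly6C-low library (red) and Ly6C-hi library (blue) of Rnaset2-/- liver, with symbols for the replicate number, and bars for the means of 4 wild-type Kupffer cell libraries (grey) and 3 wild-type hepatic Ly6C-low libraries (orange). Cd5l of the Ly6C-low libraries sits near the Kupffer cell mean of 6345 RPM, whereas Clec4f lies far under its Kupffer cell mean of 4197 RPM.

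Promoters of 2 Kupffer cell genes are shown because Maf, a transcription factor of the large MAF family that acts in macrophages, belongs to the macrophage factors described further on. The sequences run from 250 bases before the start of the gene to 30 bases after it, 5′ to 3′ on the strand of the gene, and come from RefSeq on GRCm38.p6. Capitals mark the half-site TGCTGA of MAF proteins on either strand. A total of 20 motifs were searched, of which the 3 shown in this report were picked after their matches were seen. The half-site ends in TGA, with which the AP-1 pattern TGANTCA, also searched, begins.
Cd5l (chr3:87357631-87357910, plus strand): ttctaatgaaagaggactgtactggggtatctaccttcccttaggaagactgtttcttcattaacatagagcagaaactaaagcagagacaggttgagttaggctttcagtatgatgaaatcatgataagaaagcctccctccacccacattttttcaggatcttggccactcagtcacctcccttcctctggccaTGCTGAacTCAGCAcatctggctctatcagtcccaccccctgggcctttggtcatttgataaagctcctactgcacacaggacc
Clec4f (chr6:83656087-83656366, minus strand): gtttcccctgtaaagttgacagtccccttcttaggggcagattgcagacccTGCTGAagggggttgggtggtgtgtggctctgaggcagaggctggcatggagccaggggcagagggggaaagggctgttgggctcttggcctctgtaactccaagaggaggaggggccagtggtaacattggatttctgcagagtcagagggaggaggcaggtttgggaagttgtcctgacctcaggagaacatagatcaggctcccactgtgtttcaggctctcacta
The half-site was found in 5 of the 11 Kupffer cell genes called higher that had a promoter sequence (45.5%), against 21.7% of 27025 genes with a promoter, 17.9% of the tested genes and 20.9% of the genes called higher, all in windows from 250 bases before to 50 bases after the start. Of all Kupffer cell genes with a promoter sequence, called or not, 6 of 18 held it (33.3%). A match of these letters is a description of the sequence and no binding site.

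LXR and its partner were themselves higher in Ly6C-low. Nr1h3 was at 589, 1024 and 773 RPM in Ly6C-low replicates 1 to 3 and 145, 74.7 and 61.7 RPM in Ly6C-hi replicates 1 to 3, and Rxra, which encodes the retinoid X receptor that pairs with LXR, was at 836, 671 and 877 RPM in Ly6C-low replicates 1 to 3 and 195, 167 and 207 RPM in Ly6C-hi replicates 1 to 3. The subsets did not overlap for either gene, and Nr1h3 varied more between Ly6C-low libraries than Rxra did. The log2 differences were 3.30 ± 0.40 and 2.22 ± 0.22 (adjusted p = 0.00485 and 0.00317), and both were called in all 6 fits that left out 1 library. Of 19 LXR target genes, 7 were higher and 1 was lower, with a median log2 difference of 0.40. The 7 included Cd5l, Nr1h3 itself, Pltp, the phospholipid transfer protein (2.54), and Lpl, lipoprotein lipase (2.48), together with Abcg1, a cholesterol exporter, at 409, 568 and 401 RPM against 176, 190.4 and 224 RPM, and Apoe, the lipoprotein component, at 186, 235 and 349 RPM against 112, 56.7 and 76.999 RPM, each time Ly6C-low against Ly6C-hi. Abca1, the other main cholesterol exporter controlled by LXR, was not called, at 230.0, 92.7 and 81.8 RPM against 176, 66.03 and 107 RPM. Srebf1, through which LXR acts on fatty acid synthesis, was not called either, at 52.6, 85.9 and 53.1 RPM against 61.7, 61.7 and 72.4 RPM. The lower gene was the stearoyl-CoA desaturase Scd1 (-1.69). Without Ly6C-hi replicate 3 the list held 4 higher genes, as it did without Ly6C-low replicate 2 or 3. Among 21 genes of sterol synthesis and uptake, 1 having passed the filter through Ly6C-hi alone, 18 were not called and 3 were lower. The lower genes included the squalene synthase gene Fdft1 (-0.82), and the median of the 21 was -0.09. These 3 calls were lost without Ly6C-hi replicate 2 or 3, and without Ly6C-low replicate 2 or 3.

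Receptors and bridging proteins for dying cells and complement were higher in part, and moved in both directions only with the block. Of 27 tested genes 6 were higher and 1 was lower, against 8.75% and 8.26% of all tested genes. With the block 12 were higher and 9 lower, against 13.2% and 15.6% of all tested genes. The complement subunit C1qb was at 4025, 4529.9 and 4145 RPM in Ly6C-low replicates 1 to 3 and 1827, 184 and 234 RPM in Ly6C-hi replicates 1 to 3, so that the Ly6C-low libraries were close to each other and Ly6C-hi replicate 1 lay between them and the other Ly6C-hi libraries. Its log2 difference was 3.46 ± 0.87 (adjusted p = 0.0369), and C1qc rose by 2.62. The efferocytosis receptor Axl was at 359, 353 and 237 RPM in Ly6C-low replicates 1 to 3 and 134, 31.8 and 46.7 RPM in Ly6C-hi replicates 1 to 3, without overlap (log2 difference 2.55 ± 0.55, adjusted p = 0.0237). Mertk, its relative, was at 196, 117 and 68.8 RPM in Ly6C-low replicates 1 to 3 and 75.1, 18.8 and 28.999 RPM in Ly6C-hi replicates 1 to 3, where Ly6C-hi replicate 1 exceeded Ly6C-low replicate 3. Mertk was not called (log2 difference 1.88 ± 0.59, adjusted p = 0.0685), but was with the block (adjusted p = 0.00334). The integrin subunit Itgb5, which with αv binds opsonised apoptotic cells, was among the higher genes and rose by 1.44. Leaving out Ly6C-hi replicate 2 or 3, or Ly6C-low replicate 1, 2 or 3, left 2 higher genes in the list, and leaving out Ly6C-hi replicate 1 gave 10. Axl, C1qb and C1qc lost their calls in each of these 5 fits.

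Genes of heme and iron handling and of the lysosome were higher in part. Of 17 heme and iron genes 7 were higher and 10 were not called, with a median of 1.00. Ceruloplasmin (Cp), the ferroxidase, was at 81.4, 106 and 92.4 RPM in Ly6C-low replicates 1 to 3 and 9.06, 16.6 and 10.4 RPM in Ly6C-hi replicates 1 to 3, and Slc40a1, which exports iron, was at 678, 175 and 146 RPM in Ly6C-low replicates 1 to 3 and 49.1, 36.5 and 34.8 RPM in Ly6C-hi replicates 1 to 3. The groups did not overlap for either, but Slc40a1 of Ly6C-low replicate 1 was several times that of replicates 2 and 3, and its call was lost without Ly6C-hi replicate 2 or 3. Biliverdin reductase A (Blvra, 2.24) and Mfsd7b, which encodes a heme exporter (1.94), rose as well, while Hmox1, heme oxygenase 1, was at 1528, 930.1 and 770.3 RPM against 884, 444 and 384 RPM and was called only with the block (adjusted p 0.12 without and 0.0103 with it). Of 48 lysosomal genes 13 were higher and 35 were not called, with a median of 0.45, and the block gave 19 higher and 1 lower. Acp5, tartrate-resistant acid phosphatase, was at 1498, 2524 and 3153 RPM in Ly6C-low replicates 1 to 3 and 323, 211 and 214 RPM in Ly6C-hi replicates 1 to 3, with a log2 difference of 3.38 ± 0.37. The cathepsin F gene Ctsf rose by 2.41, and Lipg and Lpl of this list are described above. The counts of the heme and iron list and of the lysosomal list fell to 3 and to 4 without Ly6C-hi replicate 2 or 3. Without any single Ly6C-low library 4 heme and iron genes and 5 or 6 lysosomal genes were higher.

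Several endosomal sensing genes were higher. Of 21 genes for nucleic acid-sensing TLRs and their partners, 7 were higher and 14 were not called, with a median of 0.26. Tlr8 was at 272, 429.6 and 411 RPM in Ly6C-low replicates 1 to 3 and 92.2, 138 and 96.2 RPM in Ly6C-hi replicates 1 to 3, all Ly6C-low libraries lying above the Ly6C-hi libraries, with a log2 difference of 1.92 ± 0.25 (adjusted p = 0.00597). Unc93b1, which carries these receptors to endosomes, rose by 1.45, the protease legumain (Lgmn), which cleaves them, by 1.78, and Tlr3 by 1.20. Tlr13, a sensor of bacterial ribosomal RNA, was at 56.3, 62.6 and 33.9 RPM in Ly6C-low replicates 1 to 3 and 29.6, 81.6 and 52.5 RPM in Ly6C-hi replicates 1 to 3. The subsets overlapped, and the log2 difference was 0.13 ± 0.35 (adjusted p = 0.813). Tlr7, another sensor of single-stranded RNA, was at 106, 112 and 104 RPM against 65.1, 214 and 211 RPM and overlapped too. Of 12 genes for TLRs of the cell surface and their partners, 2 were higher, Tlr4 at 267, 216 and 248 RPM in Ly6C-low replicates 1 to 3 and 90.6, 57.5 and 58.8 RPM in Ly6C-hi replicates 1 to 3 (log2 difference 2.0 ± 0.28) and Cd180, a homologue of TLR4 (1.30), and the other 10 were not called. Of 7 Fc receptor genes 2 were higher, the gate gene Fcgr4 and Fcrl5. The count of the nucleic acid-sensing list fell to 2 without Ly6C-hi replicate 2, to 1 without Ly6C-hi replicate 3 and to 3 without Ly6C-low replicate 2 or 3, whereas Tlr8 and Tlr4 were called in all 6 fits. Ly6C-low cells were also higher in 5 and lower in 5 of 20 C-type lectin genes. Those that rose included Clec1b, the podoplanin receptor CLEC-2 (3.97), Clec4f and Clec4b1, a DCAR family receptor (3.42). Those that fell included Clec4d and Clec4e, which recognise mycobacterial glycolipids, by 4.12 and 3.89 on the log2 scale. Both lost their calls without any 1 of replicates 2 and 3 of either subset, which in each case left 3 higher lectin genes and, in limma, 0 lower ones.

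**Figure D3:**
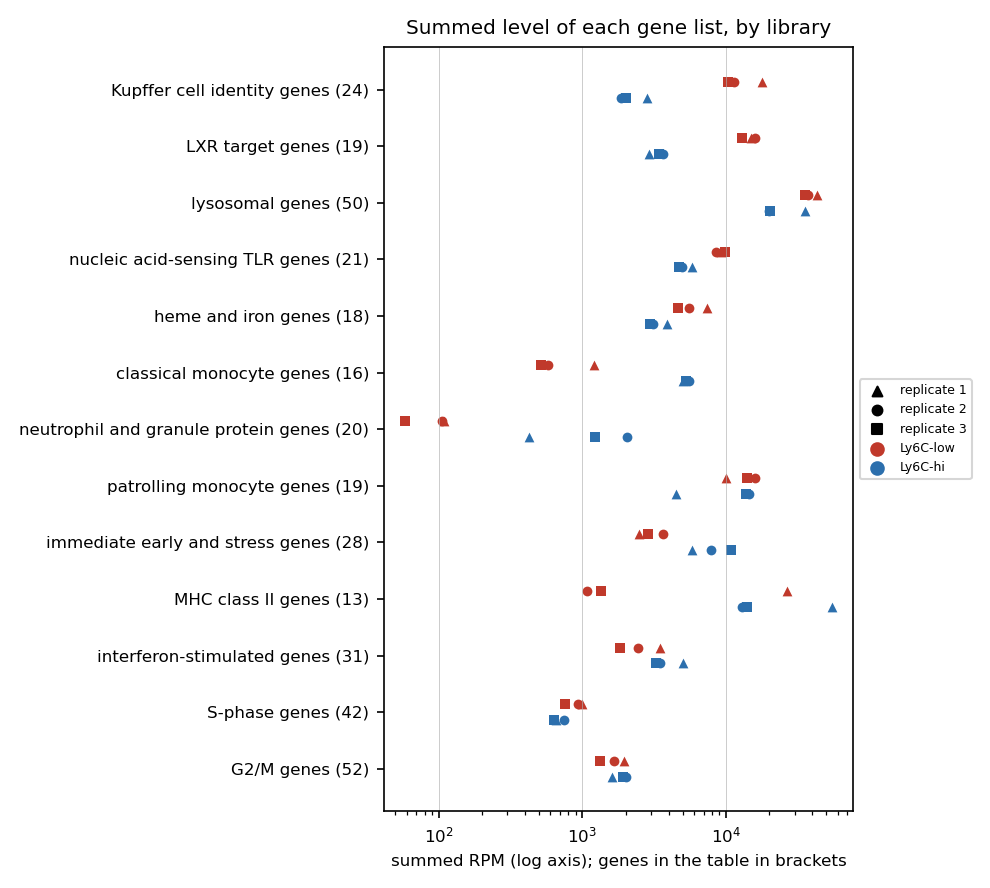
Summed RPM, on a log axis, of 13 gene lists in each Ly6C-low library (red) and Ly6C-hi library (blue) of Rnaset2-/- liver, with symbols for the replicate number and the number of genes per list in brackets. The 3 Ly6C-low sums of the Kupffer cell list (10326 to 17850 RPM) lie above all Ly6C-hi sums (1853 to 2835 RPM), and those of the classical monocyte list (517 to 1210 RPM) lie below all Ly6C-hi sums (5014 to 5532 RPM). Cd5l alone makes up the larger part of each Ly6C-low sum of the Kupffer cell list. Both Cd5l and Nr1h3 are counted in the LXR list too.

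Cytokine genes went both ways. Of 19 tested genes 5 were higher and 4 lower, of which 2 had passed the filter through Ly6C-hi alone. Il10, which encodes an anti-inflammatory cytokine, was at 46.7, 41.1 and 48.8 RPM in Ly6C-low replicates 1 to 3 and 3.22, 7.03 and 9.62 RPM in Ly6C-hi replicates 1 to 3. The Ly6C-low values were close together and did not overlap with the Ly6C-hi values, with a log2 difference of 2.86 ± 0.31 (adjusted p = 0.00334). Tnfsf13b, the B cell survival factor BAFF (2.30), Il18, an inflammasome-processed cytokine (1.53), and Pdgfb, platelet-derived growth factor B (1.29), rose too. Il12b, the p40 subunit of interleukin 12, was at 2.31, 2.72 and 1.61 RPM in Ly6C-low replicates 1 to 3 and 23.5, 39.5 and 54.1 RPM in Ly6C-hi replicates 1 to 3, and Osm, oncostatin M, was at 1.39, 0.623 and 1.07 RPM in Ly6C-low replicates 1 to 3 and 17.7, 20.5 and 45.2 RPM in Ly6C-hi replicates 1 to 3. Both were lower in each Ly6C-low library, by 3.44 ± 0.29 and 3.60 ± 0.35 on the log2 scale. Ifnb1, interferon β, was at 0.231, 0.0780 and 0.0770 RPM in Ly6C-low replicates 1 to 3 and 2.99, 2.70 and 5.69 RPM in Ly6C-hi replicates 1 to 3, that is at or below the floor of 3 reads in every Ly6C-low library. Its log2 difference of -1.96 ± 0.29 (adjusted p = 0.00788) depends on the added 1 and is no measure of the fold. Tnf was not called, at 4.46, 2.72 and 0.995 RPM against 11.4, 3.40 and 3.0 RPM, and Il6 did not pass the filter, at 0.308, 0.623 and 0.0770 RPM in Ly6C-low and 3.22, 0.850 and 8.46 RPM in Ly6C-hi. Il18 lost its call without Ly6C-hi replicate 2 or 3 or any single Ly6C-low library, and Tnfsf13b without any 1 of replicates 2 and 3 of either subset. Without Ly6C-hi replicate 2 or 3, 2 cytokine genes were higher and 2 lower, and without Ly6C-low replicate 2 or 3, 1 was higher.

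Several chemoattractant receptor genes and a few chemokine genes were lower in Ly6C-low. Of 16 chemokine genes 1 was higher and 3 lower, against 8.75% and 8.26% of all tested genes. The block gave 1 higher and 9 lower, against 13.2% and 15.6% of all tested genes. The higher gene was Ppbp, a platelet chemokine (1.96). Ccl22, a ligand of CCR4, was at 0.616, 1.25 and 1.99 RPM in Ly6C-low replicates 1 to 3 and 20.1, 79.6 and 82.4 RPM in Ly6C-hi replicates 1 to 3, and Cxcl2, which attracts neutrophils, was at 2.54, 0.389 and 0.306 RPM in Ly6C-low replicates 1 to 3 and 42.3, 20.9 and 50.2 RPM in Ly6C-hi replicates 1 to 3. In both, all Ly6C-low libraries lay far under the Ly6C-hi libraries, with log2 differences of -4.43 ± 0.51 and -4.18 ± 0.50, and Ccl9 fell by 2.42. Of 14 chemoattractant receptor genes, 1 having passed the filter through Ly6C-low alone, 7 were lower and 1, the formyl peptide receptor Fpr1 (1.38), was higher. Ccr2, by which monocytes leave the marrow, was at 43.3, 8.56 and 6.28 RPM in Ly6C-low replicates 1 to 3 and 462, 401 and 336 RPM in Ly6C-hi replicates 1 to 3, and Cxcr4, which retains cells in the marrow, was at 28.6, 18.8 and 28.9 RPM in Ly6C-low replicates 1 to 3 and 202, 527 and 629.8 RPM in Ly6C-hi replicates 1 to 3. Their log2 differences were -4.61 ± 0.64 and -3.81 ± 0.39 (adjusted p = 0.00653 and 0.00323), and both calls were kept in all 6 fits. Cx3cr1, the fractalkine receptor of patrolling monocytes, was at 29.6, 18.5 and 12.2 RPM in Ly6C-low replicates 1 to 3 and 26.4, 134 and 143 RPM in Ly6C-hi replicates 1 to 3. Ly6C-hi replicate 1 lay inside the Ly6C-low range, and the gene was not called (log2 difference -1.86 ± 0.60, adjusted p = 0.0727) but was lower with the block (adjusted p = 0.0402). Leaving out Ly6C-hi replicate 2 or 3, or Ly6C-low replicate 2, left 4, 3 and 4 lower receptor genes. The 31 interferon-stimulated genes held 1 higher and 2 lower genes, with a median of -0.42. Both shares were below the 8.75% and 8.26% of all tested genes. With the block 2 were higher and 9 lower, against 13.2% and 15.6% of all tested genes. Ifit1 rose by 1.17, whereas Oas3 and Ifi27l2a fell by 1.12 and 2.40. None of these 3 calls held without Ly6C-hi replicate 2 or 3. Rsad2, the antiviral protein viperin, was at 32.7, 29.6 and 29.3 RPM against 25.3, 22.6 and 23.9 RPM, Ifih1, the RNA sensor MDA5, at 81.98, 98.8 and 64.8 RPM against 62.02, 71.1 and 59.9 RPM, Mx1 at 30.6, 11.8 and 6.81 RPM against 58.8, 50.3 and 46.2 RPM and Oas1a at 74.9, 70.97 and 50.8 RPM against 124, 131 and 106 RPM, none of them called. With the block Mx1 (adjusted p = 0.00545) and Oas1a (adjusted p = 0.0223) were lower in Ly6C-low.

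Most genes of classical monocytes were lower in Ly6C-low. Of 16 tested genes 12 were lower and 4 were not called, 1 having passed the filter through Ly6C-hi alone, and the median log2 difference was -3.85. F13a1, coagulation factor XIII, was at 9.78, 3.81 and 3.52 RPM in Ly6C-low replicates 1 to 3 and 162, 361 and 365 RPM in Ly6C-hi replicates 1 to 3. Fn1, fibronectin, was at 6.62, 4.51 and 4.29 RPM in Ly6C-low replicates 1 to 3 and 97.7, 437 and 565 RPM in Ly6C-hi replicates 1 to 3, and Hp, haptoglobin, was at 24.9, 5.37 and 3.06 RPM in Ly6C-low replicates 1 to 3 and 382, 440.1 and 458 RPM in Ly6C-hi replicates 1 to 3. In these genes the Ly6C-low libraries all lay well under the Ly6C-hi libraries, with log2 differences of -5.35 ± 0.41, -5.43 ± 0.56 and -5.46 ± 0.62 (adjusted p = 0.00179, 0.00323 and 0.00413). Mcemp1, expressed by mast cells and monocytes, fell by 5.22 on the log2 scale. Plac8, a small cysteine-rich protein, was at 249, 11.4 and 12.8 RPM in Ly6C-low replicates 1 to 3 and 1549, 1299.8 and 1187 RPM in Ly6C-hi replicates 1 to 3, with Ly6C-low replicate 1 far above Ly6C-low replicates 2 and 3. Its call was lost without Ly6C-hi replicate 2 or 3 or Ly6C-low replicate 2 or 3, and so was that of the lysozyme gene Lyz2, at 5939.6, 777 and 832 RPM in Ly6C-low replicates 1 to 3 and 27316, 17591 and 17450.2 RPM in Ly6C-hi replicates 1 to 3 (log2 difference -3.53 ± 0.80). The list had 7 lower genes without Ly6C-hi replicate 2 or 3 or Ly6C-low replicate 2, and 8 without Ly6C-low replicate 3.

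Genes of patrolling monocytes moved in both directions. Of 19 tested genes 4 were higher, which were Cd300e, an activating receptor (2.54), the gate gene Fcgr4, the integrin Itgax, which encodes CD11c (2.17), and Clec4a3 (1.40), and 1 was lower, the transcription factor Cebpb (-1.50). The median was 0.19. Ace, angiotensin-converting enzyme, a defining gene of the list, was at 47.6, 14.9 and 7.58 RPM in Ly6C-low replicates 1 to 3 and 26.2, 609 and 667 RPM in Ly6C-hi replicates 1 to 3, and Pglyrp1, a peptidoglycan receptor, was at 18.8, 11.4 and 12.1 RPM in Ly6C-low replicates 1 to 3 and 20.1, 289.7 and 232 RPM in Ly6C-hi replicates 1 to 3. In both genes only Ly6C-hi replicates 2 and 3 were high and Ly6C-hi replicate 1 lay at the Ly6C-low level or near it, so that neither was called. Ceacam1, an adhesion receptor, had the same arrangement at 153, 93.8 and 73.3 RPM against 116, 1608 and 1411 RPM. Without replicate 1 of both subsets, 4 genes of the list were higher and 8 lower, and with the block 6 were higher and 5 lower. Any fit that left out 1 of replicates 2 and 3 of either subset called 1 gene higher and 1 lower.

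Genes for neutrophil and granule proteins included the largest falls of the comparison. The test covered 14 of 20 listed genes, 7 of them through Ly6C-hi alone, and called 11 lower and 3 not. Ngp, neutrophilic granule protein, was at 2.001, 4.51 and 0.689 RPM in Ly6C-low replicates 1 to 3 and 83.1, 703 and 320.4 RPM in Ly6C-hi replicates 1 to 3. S100a9 and S100a8, which form calprotectin, were at 3.62, 4.59 and 0.459 RPM against 62.2, 488 and 324 RPM and 3.23, 1.48 and 0.306 RPM against 53.7, 248 and 142 RPM, again Ly6C-low against Ly6C-hi. Ly6C-hi replicate 2 was the highest library and Ly6C-hi replicate 1 the lowest of that subset in each of these 3 genes, yet all Ly6C-hi libraries lay above all Ly6C-low libraries, with log2 differences of -6.33 ± 0.73, -5.88 ± 0.78 and -5.59 ± 0.59 (adjusted p = 0.00434, 0.00601 and 0.00334). Camp, the cathelicidin, and Ltf, lactoferrin, both of secondary granules, were at 0.0770, 0.545 and 0 RPM against 10.3, 98.2 and 53.6 RPM and 0.154, 0.389 and 0 RPM against 9.90, 84.8 and 46.1 RPM. Ly6g, the neutrophil antigen that the labelled gate excludes, was between 0 and 1.77 RPM in all 6 libraries and did not pass the filter, and Cxcr2, the chemokine receptor of mature neutrophils, was between 0 and 1.31 RPM. Csf3r, the G-CSF receptor, was not called, at 85.2, 76.5 and 49.5 RPM against 117, 108 and 93.998 RPM. Elane, the elastase of promyelocytes, was listed at 0 in the Ly6C-low libraries and at 0.307, 23.02 and 10.5 RPM in the Ly6C-hi libraries. The list held 4 lower genes without Ly6C-hi replicate 2 or 3 and 6 without Ly6C-hi replicate 1, in part because fewer of its genes then reached 1 RPM in 3 libraries.

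Promoters of 3 granule genes called lower are shown because C/EBP factors act in granulocytes and Cebpb itself was lower in Ly6C-low. The windows, build and source are as for the Kupffer cell genes, and capitals mark the C/EBP motif TTGCNNAA on either strand.
Ngp (chr9:110419558-110419837, plus strand): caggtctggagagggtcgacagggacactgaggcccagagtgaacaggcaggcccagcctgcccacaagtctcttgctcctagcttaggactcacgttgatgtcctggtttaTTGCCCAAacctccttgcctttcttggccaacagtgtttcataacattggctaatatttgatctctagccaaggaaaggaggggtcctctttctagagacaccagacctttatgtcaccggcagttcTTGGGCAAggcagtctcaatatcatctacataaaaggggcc
Ltf (chr9:111019042-111019321, plus strand): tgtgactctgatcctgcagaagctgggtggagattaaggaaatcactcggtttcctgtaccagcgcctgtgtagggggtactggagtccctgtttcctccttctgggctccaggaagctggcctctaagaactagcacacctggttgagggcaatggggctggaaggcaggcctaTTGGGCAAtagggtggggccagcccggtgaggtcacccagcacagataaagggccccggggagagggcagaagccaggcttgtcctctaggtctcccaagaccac
Fcnb (chr2:28084849-28085128, minus strand): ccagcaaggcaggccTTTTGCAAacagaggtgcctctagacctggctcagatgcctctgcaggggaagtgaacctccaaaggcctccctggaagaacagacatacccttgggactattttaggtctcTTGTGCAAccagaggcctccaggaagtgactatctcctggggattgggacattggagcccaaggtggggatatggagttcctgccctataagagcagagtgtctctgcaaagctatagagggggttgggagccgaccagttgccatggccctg
The motif was found in 7 of the 11 granule genes called lower (63.6%), against 12.2% of all genes with a promoter, 10.2% of the tested genes and 11.5% of the genes called lower. It was in 9 of the 19 granule genes with a promoter sequence (47.4%) whether called or not, so that a high share is a feature of the list. As before, a match says only that these letters are in the window.

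Genes of antigen presentation varied with the replicate as well as with the subset. The 13 genes of MHC class II presentation summed to 26491 RPM in Ly6C-low replicate 1 but to 1071 and 1346 RPM in replicates 2 and 3, and to 54779, 13017 and 14007 RPM in Ly6C-hi replicates 1 to 3. Ly6C-low replicate 1 thus exceeded Ly6C-hi replicates 2 and 3, although each Ly6C-low library lay under the Ly6C-hi library of the same number. Of the 13 genes 4 were lower, with a median of -2.42, which were Cd40, a costimulatory receptor (-3.10), H2-Oa (-2.42), H2-DMb2 (-2.02) and H2-Ob (-1.44). The invariant chain Cd74 was at 17546, 583 and 757 RPM in Ly6C-low replicates 1 to 3 and 30381, 7986 and 8759.9 RPM in Ly6C-hi replicates 1 to 3 and was not called (log2 difference -2.53 ± 1.32, adjusted p = 0.218). With the block 12 of the 13 genes were lower, Cd74 included (adjusted p = 0.0132), and without replicate 1 of both subsets 12 were lower. Without Ly6C-low replicate 1 alone 10 were lower, and without Ly6C-hi replicate 2 or 3 limma called 0. Markers of conventional dendritic cells, which carry much MHC class II, were split. Of 9 tested markers, 2 having passed the filter through Ly6C-hi alone, 2 were higher (Xcr1 by 2.12 and Batf3 by 1.97). A further 4 were lower, among the markers Flt3 (-2.45) and Ccr7 (-2.62). Their sums were 315, 189 and 374 RPM in Ly6C-low and 256, 463 and 546 RPM in Ly6C-hi, and Clec9a, which marks one type of these cells, was at 128, 42.6 and 42.8 RPM against 118, 61.8 and 50.8 RPM. Their part in the MHC class II values was not tested.

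Immediate early and stress genes were lower in Ly6C-low. Of 28 tested genes 16 were lower and 12 were not called, with a median of -1.48, and 3 had passed the filter through Ly6C-hi alone. The block gave 21 lower genes. The summed level was 2470 to 3619 RPM in Ly6C-low and 5774 to 10807 RPM in Ly6C-hi, without overlap. The heat shock genes Hspa1a and Hspa1b were at 34.4, 40.2 and 38.97 RPM against 131, 292 and 411 RPM and 73.3, 74.4 and 51.1 RPM against 207, 606 and 864 RPM, and fell by 2.53 ± 0.34 and 2.69 ± 0.44 on the log2 scale. Jun, a subunit of AP-1 named after its value was seen, was at 89.8, 57.3 and 99.7 RPM against 359, 489.5 and 628 RPM and fell by 2.40 ± 0.28, while Ier3 and Egr3 fell by 2.78 and 2.54. The list held 8 or 7 lower genes when Ly6C-hi replicate 2 or 3 was left out. Hspa1b lost its call without Ly6C-hi replicate 2, Ier3 and Egr3 lost theirs in 3 and in 4 of the 6 fits, and Hspa1a and Jun kept theirs in all 6.

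Transcription factors divided the subsets in both directions, 6 of 34 being higher and 6 lower (10 and 11 with the block). Over all tested genes the shares were 8.75% and 8.26% (13.2% and 15.6% with the block). Besides Nr1h3 and Rxra, Spic, which drives red pulp and bone marrow macrophages that recycle iron, was at 203, 114 and 62.6 RPM in Ly6C-low replicates 1 to 3 and 24.7, 23.2 and 14.3 RPM in Ly6C-hi replicates 1 to 3, above the Ly6C-hi range in each Ly6C-low library (log2 difference 2.59 ± 0.44), though its call was lost without Ly6C-hi replicate 3. Batf3 rose as given above. Maf, named after its value was seen, rose by 1.09. Runx3, a factor of lymphocytes and dendritic cells, was at 7.85, 3.04 and 2.68 RPM in Ly6C-low replicates 1 to 3 and 63.6, 70.3 and 86.5 RPM in Ly6C-hi replicates 1 to 3 and fell by 3.71 ± 0.35. Gfi1 (-2.65) and Myb (-2.41), factors of progenitors and granulocytes, and Cebpb fell as well. Cebpb was at 495, 513 and 365 RPM in Ly6C-low replicates 1 to 3 and 1191, 1490.2 and 1667 RPM in Ly6C-hi replicates 1 to 3, without overlap, and Cebpb and Runx3 kept their calls in all 6 fits. Without any 1 of replicates 2 and 3 of either subset, 2 or 3 of the factors were higher and 3 lower, and without Ly6C-hi replicate 1, 7 and 10. Among 26 genes of Notch and TGF-β or BMP signaling, pathways that shape Kupffer cells from monocytes, 6 were higher and 3 lower. Smad1 (1.95), Id2 (1.64) and the receptors Tgfbr1 (1.70) and Tgfbr2 (1.61) rose, whereas the Notch ligand Jag1, at 2.31, 1.87 and 5.51 RPM against 30.9, 33.6 and 46.6 RPM, fell by 3.10 ± 0.36, and Notch1 and Smad3 fell by 1.46 and 1.36. These pathways had 2 higher and 2 lower genes without Ly6C-hi replicate 2 or 3 or Ly6C-low replicate 2. Of 25 integrin and adhesion genes 4 were higher, among them Itgad, the αD integrin of tissue macrophages (3.52), and Itga9 (2.78). In this list 2 were lower, the α4 integrin Itga4 (-1.37) and P-selectin, Selp (-1.91), a share close to the 8.26% of all tested genes. Of 7 genes of alternative activation 2 were lower, Ccl22 and Clec10a (-1.07), and Mrc1, the mannose receptor, was at 382, 99.2 and 159 RPM against 53.04, 214 and 328 RPM, with overlap.

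A minority of cell cycle genes was higher in Ly6C-low, for G2/M a share close to the 8.75% of all tested genes. Of 39 S-phase genes, 1 having passed the filter through Ly6C-low alone, 6 were higher and 33 were not called, with a median of 0.60. Of 49 G2/M genes 5 were higher and 1, Tmpo (-1.06), was lower, with a median of 0.38. With the block 11 S-phase genes and 14 G2/M genes were higher. The summed level of the S-phase genes was 998, 938 and 761 RPM in Ly6C-low replicates 1 to 3 and 659, 745 and 638 RPM in Ly6C-hi replicates 1 to 3, without overlap. That of the G2/M genes was 1964, 1656 and 1321 RPM against 1605, 2002 and 1932 RPM, so that Ly6C-low was above Ly6C-hi in replicate 1 and below it in replicates 2 and 3. Kif23, a motor of cytokinesis, was at 77.1, 62.9 and 61.9 RPM in Ly6C-low replicates 1 to 3 and 13.9, 24.5 and 24.2 RPM in Ly6C-hi replicates 1 to 3, and Kif20b, another mitotic kinesin, was at 23.2, 19.5 and 17.2 RPM in Ly6C-low replicates 1 to 3 and 6.37, 9.42 and 8.85 RPM in Ly6C-hi replicates 1 to 3. The Ly6C-low values lay above the Ly6C-hi values in both genes, with log2 differences of 1.84 ± 0.22 and 1.35 ± 0.21 (adjusted p = 0.00461 and 0.00926), and both calls were kept in all 6 fits. Mki67, the proliferation antigen Ki-67, was at 43.6, 38.7 and 24.7 RPM in Ly6C-low replicates 1 to 3 and 34.01, 19.8 and 14.2 RPM in Ly6C-hi replicates 1 to 3. The subsets overlapped, and Mki67 was not called (log2 difference 0.83 ± 0.39, adjusted p = 0.181) but was higher with the block (adjusted p = 0.0343). Among S-phase genes Pola1 (1.06), Mcm7 (1.0), Chaf1b (0.99) and Wdr76 (0.92) rose. Unscaled RPM gave 2 higher S-phase genes and 3 higher G2/M genes. Without Ly6C-hi replicate 3 or Ly6C-low replicate 2 limma called 0 S-phase genes, and 1 was without Ly6C-hi replicate 2 and 2 without Ly6C-low replicate 1 or 3. Without Ly6C-hi replicate 2 or 3, or Ly6C-low replicate 1 or 2, 2 G2/M genes were higher, and without Ly6C-low replicate 3, 3.

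Promoters of the 2 kinesin genes are shown because many genes of mitosis carry the cell cycle homology region (CHR), a motif near the start of transcription. Capitals mark the CHR letters TTTGAA on either strand.
Kif23 (chr9:61946770-61947049, minus strand): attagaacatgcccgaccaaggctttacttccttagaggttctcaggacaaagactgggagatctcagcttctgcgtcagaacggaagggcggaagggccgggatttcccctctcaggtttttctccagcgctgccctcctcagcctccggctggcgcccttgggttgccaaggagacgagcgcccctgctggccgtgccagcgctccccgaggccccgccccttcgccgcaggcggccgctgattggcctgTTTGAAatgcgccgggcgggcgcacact
Kif20b (chr19:34922108-34922387, plus strand): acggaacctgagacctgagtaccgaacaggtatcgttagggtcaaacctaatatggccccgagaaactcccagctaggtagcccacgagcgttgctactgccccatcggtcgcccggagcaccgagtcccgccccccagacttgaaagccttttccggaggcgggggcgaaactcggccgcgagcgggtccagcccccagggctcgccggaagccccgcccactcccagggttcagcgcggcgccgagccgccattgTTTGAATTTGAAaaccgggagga
The letters were found in 5 of the 5 G2/M genes called higher and in 32 of the 44 G2/M genes with a promoter sequence (72.7%), against 20.2% of all genes with a promoter and 14.2% of the tested genes. The share among G2/M genes is a feature of the list and not of the genes called here.

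Markers of other cells of the liver were measured in the same libraries. Of 11 tested NK cell markers 10 were lower in Ly6C-low, and the markers summed to 125, 43.3 and 78.3 RPM in Ly6C-low replicates 1 to 3 and to 426, 816 and 899 RPM in Ly6C-hi replicates 1 to 3, where the labelled gate, unlike the stain in the methods, excludes NK1.1(+) cells. The granzyme gene Gzma was at 5.93, 2.02 and 2.22 RPM against 19.96, 94.7 and 141 RPM, and Klrb1c, which encodes NK1.1, was at 1.77, 0.623 and 3.75 RPM against 5.22, 58.6 and 89.6 RPM. T cell markers summed to 232, 62.1 and 131 RPM against 736, 585 and 355 RPM, and 5 of 13 were lower (11 with the block). Of 13 B and plasma cell markers 6 were lower. Without Ly6C-hi replicate 2 or 3 or Ly6C-low replicate 2, the lower NK cell markers numbered 4, 5 and 6, the T cell markers 0, 3 and 0, and the B and plasma cell markers 1, 0 and 0. Of 5 tested markers of eosinophils, basophils and mast cells 3 were lower, 1 of the 5 having passed the filter through Ly6C-hi alone. The markers of these cells summed to 14.2, 1.71 and 5.97 RPM against 93.7, 229 and 257 RPM. Prg2, the major basic protein of eosinophils, was at 9.24, 0.389 and 0.689 RPM in Ly6C-low replicates 1 to 3 and 79.4, 167 and 162 RPM in Ly6C-hi replicates 1 to 3, among the largest falls (log2 difference -5.37 ± 0.74), while Siglecf, excluded by the labelled gate, was between 0.766 and 2.46 RPM in all 6 libraries.

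The 14 markers of sinusoidal endothelium summed to 189, 383 and 1856 RPM in Ly6C-low and to 454, 2364 and 3537 RPM in Ly6C-hi. None was called in limma (0 of 14, with 2 lower at an unadjusted p below 0.05), DESeq2 called 1 and edgeR 0 lower, and with the block 12 were lower. Stab2, a scavenger receptor of this endothelium, was at 9.16, 15.6 and 56.5 RPM against 21.6, 129 and 222 RPM. Hepatocyte markers summed to 15.5 to 105 RPM in Ly6C-low and to 28.96 to 92.3 RPM in Ly6C-hi, with 0 of 10 called in limma (0 at an unadjusted p below 0.05), DESeq2 and edgeR. Of 9 erythroid markers 2, of 4 stellate cell markers 1 and of 7 markers of plasmacytoid dendritic cells 1 were lower, and 1 of the last was higher. The sums of the NK, T, eosinophil and endothelial markers lay higher in each Ly6C-hi library than in the Ly6C-low library of the same number, and the part of such cells in the genes that were lower in Ly6C-low was not tested. The markers of Kupffer cells lay on the other side, and some of the 13 called Kupffer cell genes, such as Cd5l, stood near their level in sorted Kupffer cells while others, such as Clec4f, stood far under it. The part of Kupffer cells within the Ly6C-low gate was not tested.

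**Figure D4:**
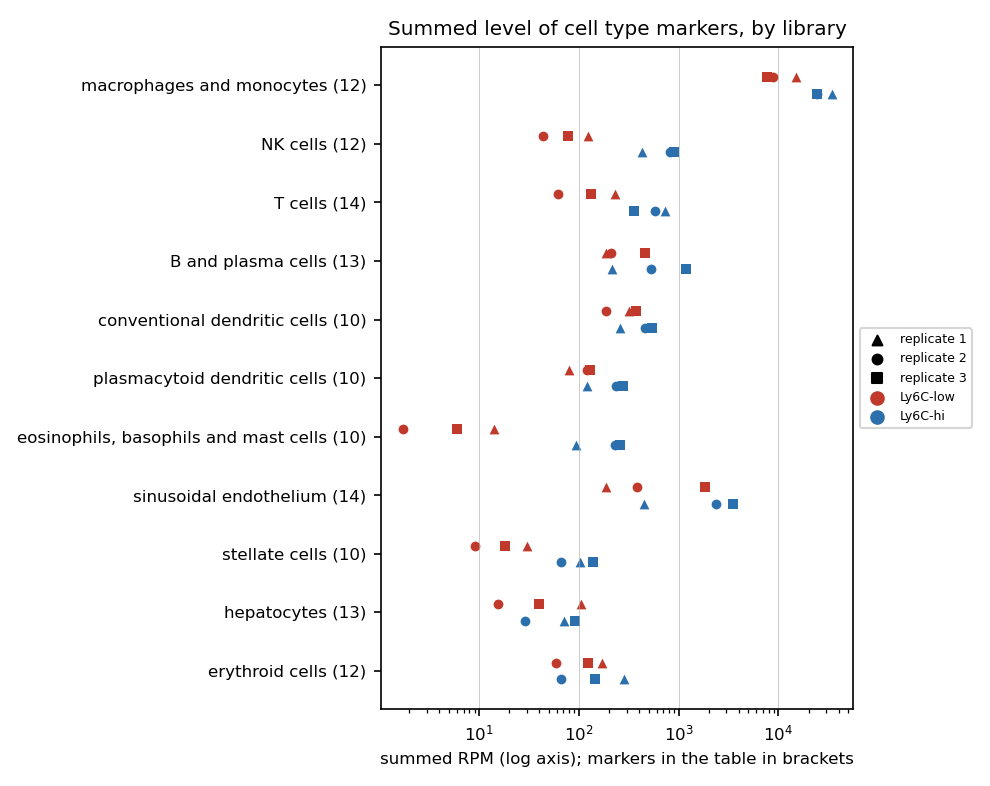
Summed RPM, on a log axis, of markers of 11 cell types in each Ly6C-low library (red) and Ly6C-hi library (blue) of Rnaset2-/- liver, with symbols for the replicate number and the number of markers in brackets. The NK cell sums of the Ly6C-low libraries (43.3 to 125 RPM) lie below all Ly6C-hi sums (426 to 899 RPM), whereas the hepatocyte sums overlap.

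The subset difference was set against that in wild-type liver, whose libraries are not shared with it. There 612 of 11688 tested genes were higher and 566 lower in Ly6C-low. Of the 10117 genes tested in both, 578 were higher and 547 lower in wild-type liver, whatever their call in Rnaset2-/- liver. Higher in both were 142, which is 16.4% of those higher in Rnaset2-/- liver and 24.6% of those higher in wild-type liver. Lower in both were 160 (20.1% and 29.3%). Opposite calls were made for 50 genes lower here and higher in wild type (6.27% of those lower here). A further 27 were higher here and lower in wild type (3.11% of those higher here). These shares are to be read against the 578 and 547 of 10117 genes. In an interaction test over the 12 libraries, the log2 difference was larger, that is more positive, in Rnaset2-/- liver for 642 of 12626 genes (5.08%) and smaller, that is more negative, for 663 (5.25%). Genes with a larger difference included Lipg (5.07 ± 0.56 on the log2 scale, adjusted p = 0.000368), Nr1h3 (3.57 ± 0.46, adjusted p = 0.000774), Rxra (2.84 ± 0.35) and Axl (2.78 ± 0.60). Nr1h3 was at 43.3 ± 7.09 RPM in wild-type Ly6C-low and 47.7 ± 4.75 RPM in wild-type Ly6C-hi cells (SD, n = 3), so that the subsets differed little there (log2 difference -0.25). Ccr2, lower in Ly6C-low in both genotypes, had a larger fall in Rnaset2-/- liver (interaction -2.99 ± 0.72, wild-type log2 difference -1.60). Of the lists, the Kupffer cell genes had 7 of 23 with a larger difference (median interaction 1.28, against -0.04 over all genes), lysosomal genes 17 of 49 (0.87) and macrophage transcription factors 8 of 34, with 2 smaller. A larger difference was also found in 7 of 21 nucleic acid-sensing TLR genes (0.37), 8 of 31 interferon-stimulated genes (0.38) and 5 of 17 heme and iron genes (1.04). Chemoattractant receptor genes had 7 of 17 with a smaller difference (-1.98) and 1 with a larger one. Immediate early genes had 12 of 28 with a smaller difference (-1.18). In wild-type liver the immediate early and stress genes summed to 31542 to 45734 RPM in Ly6C-low and to 36853 to 41269 RPM in Ly6C-hi. In Rnaset2-/- liver those sums were 2470 to 3619 RPM and 5774 to 10807 RPM. The part of this gap between the genotypes in the interaction was not tested. In this interaction the sex of the mice followed the genotype, and the effects of both cannot be told apart. Transcripts of 4 Y-linked genes summed to 150 to 291 RPM in the 6 Rnaset2-/- liver libraries, in which Xist was at 0 to 0.154 RPM, whereas in wild-type liver Xist was at 321 to 539 RPM and the Y-linked sum at 0 to 52.0 RPM. Both subsets of Rnaset2-/- liver had the same pattern.

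The subset difference was also compared with that in Rnaset2-/- spleen. There 1342 of 10309 tested genes were higher and 1555 lower in Ly6C-low. Of the 9964 genes tested in both organs, 1286 were higher and 1460 lower in spleen, whatever their call in liver. Higher in both were 251 (28.2% of those higher in liver and 19.5% of those higher in spleen). Lower in both were 223 (27.7% and 15.3%). Opposite calls were made for 93 genes lower in liver and higher in spleen (11.6% of those lower in liver). A further 103 were higher in liver and lower in spleen (11.6% of those higher in liver). These shares are to be read against the 1286 and 1460 of 9964 genes. The interaction over 13 libraries was larger, that is more positive, in liver for 1557 of 11378 genes (13.7%). It was smaller, that is more negative, for 1499 (13.2%). Most cell cycle genes had a more positive difference in liver, 44 of 51 G2/M genes and 27 of 40 S-phase genes. Their median interactions were 2.85 and 1.91, against -0.06 over all genes. In spleen the G2/M genes summed to 1479 to 3550 RPM in Ly6C-low and to 6392 to 7646 RPM in Ly6C-hi. In liver these sums were 1321 to 1964 RPM and 1605 to 2002 RPM, so that the subsets lay further apart in spleen. Mki67, for example, had a log2 difference of -2.88 in spleen, and its interaction was 3.68 ± 0.79 (adjusted p = 0.00691). Immediate early genes had 22 of 28 with a more negative difference (-2.03), and patrolling monocyte genes 9 of 19 (-2.07). In spleen the immediate early genes summed higher in Ly6C-low (18351 to 25733 RPM) than in Ly6C-hi (10642 to 14023 RPM), the reverse of liver. Il10, higher in Ly6C-low in both organs, had a smaller rise in liver (interaction -2.09 ± 0.65, log2 difference in spleen 4.92). Clec4f (3.42 ± 0.55), Rxra (2.28 ± 0.24) and Siglec1, the sialoadhesin of tissue macrophages (5.18 ± 0.71), had a more positive difference in liver. Of 23 Kupffer cell genes 5 had a more positive and 1 a more negative difference in liver (median 1.10). Of 19 LXR target genes these were 2 and 3 (median 0.01). Both lists also summed higher in Ly6C-low in spleen. The Kupffer cell list was at 1570 to 2308 RPM against 463 to 544 RPM in Ly6C-hi, and the LXR list at 3982 to 4593 RPM against 1856 to 2184 RPM. In spleen Xist was at 352.52 to 447.24 RPM in Ly6C-hi and at 0.781 to 743.78 RPM in Ly6C-low, so that the sex of the mice differed within this interaction as well, and its part was not tested.

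**Figure D5:**
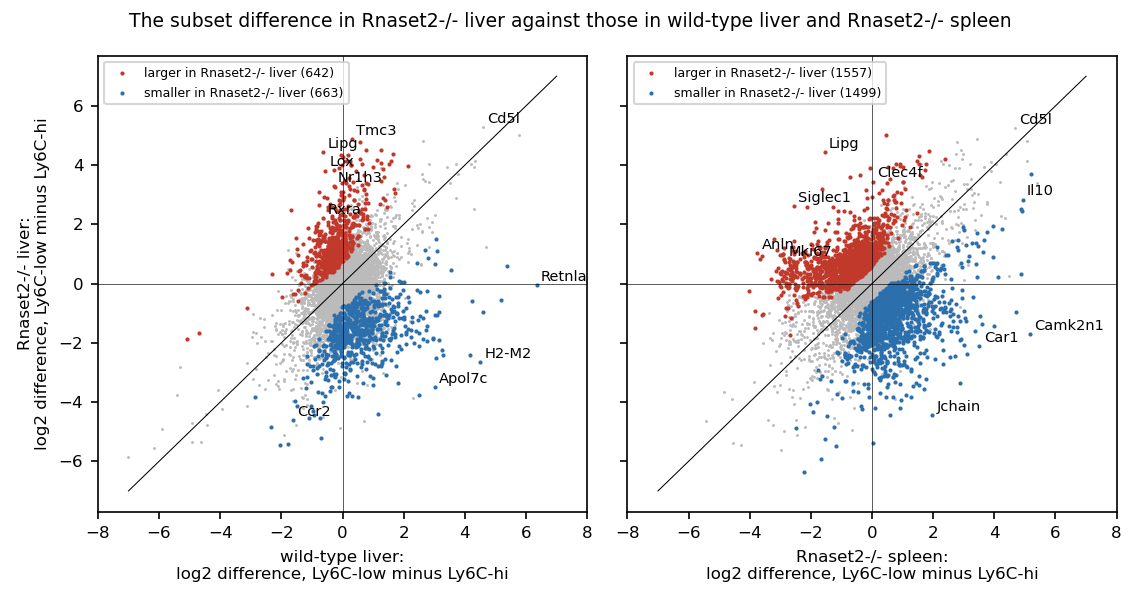
Log2 difference between Ly6C-low and Ly6C-hi cells in Rnaset2-/- liver (vertical axes) against the same difference in wild-type liver (left) and in Rnaset2-/- spleen (right), 1 point per gene, with the line of equal differences. Coloured genes passed the interaction test, 642 larger (more positive) and 663 smaller (more negative) than in wild-type liver. Against Rnaset2-/- spleen 1557 were larger and 1499 smaller in the same sense. Lipg lies above the line in both panels.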

How the data were processed

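Sorted cells were profiled with an Ion AmpliSeq kit for the mouse transcriptome from 1 ng of total RNA with a RIN above 7.0, and sequenced single-end on the Ion Proton. The AmpliSeqRNA plug-in (Torrent Suite) counted reads for each gene; the submitters' processing notes name mm 10. The authors deposited 1 table of RPM, and its column names were matched to the labels, with 0 columns unmatched. In each library 100.0% of values were whole multiples of 1 read within 0.1 reads, which gave the reads behind each value. Intervals were not computed, and the floor of 3 reads covers counting error only.

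Tests were run in R 4.3.3 with limma 3.58.1 (lmFit, eBayes with trend, two-sided) on log2(RPM / relative log expression factor + 1), with Benjamini-Hochberg adjustment over all tested genes. The thresholds and the comparison of groups in pairs followed the study, whose methods name DESeq2 instead of limma and mention no block. Its results count genes at more than 1.5-fold and, separately, at a q below 0.1. Genes entered a fit if 3 or more of its libraries reached 1 RPM. Interactions were fitted over 12 libraries (subset and genotype, in liver) and 13 libraries (subset and organ, in Rnaset2-/- mice). Count models on the recovered reads were alternatives and called 1288 higher and 1329 lower genes in DESeq2 1.42.0 and 801 and 797 in edgeR 4.0.16. The other alternatives were an added value of 0.1, no filter, no scaling factors, TMM factors, a threshold of more than 2-fold, 1 fit of all 29 libraries, the replicate block, and leaving out each library. Leaving out the same replicate number of both subsets was added after seeing the data.

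Replicate numbers were taken to pair the libraries of Rnaset2-/- liver because the deviations from the group means of Ly6C-low and Ly6C-hi libraries of the same number correlated at 0.526, 0.233 and 0.459 for replicates 1 to 3, all above 0.1. Pairs of different numbers correlated at -0.46 to 0.286, the highest being Ly6C-low replicate 3 with Ly6C-hi replicate 2, above the value of the same-numbered pair 2. This pairing comes from the data, since the labels say nothing of it.

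The comparison and all gene and marker lists were chosen with earlier results of these data known, and no list is independent evidence. Genes named are the 12 largest differences per direction among called genes without overlap and with a mean of at least 10 RPM in the higher group, genes the study names for hepatic macrophages, up to 4 called members per list and direction with a mean of at least 5 RPM in the higher group, members that define a list, and the 5 largest differences per interaction and direction. Abcg1, Apoe, Fcnb, Jun and Maf, and the genes under 1 RPM in wild-type liver outside the 12, were named after their values were seen. Promoters come from RefSeq (GRCm38.p6), with a sequence for 8397 of the 10895 tested genes. Some genes within the rule for naming are not reported here. The scripts were tested on simulated data.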

Additional observations from a re-analysis of the deposited data

Results flagged for a closer look

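The subset difference of Rnaset2-/- liver differed from that of wild-type liver by the interaction test for 642 genes with a more positive and 663 with a more negative value. Among the named genes, the difference of the differences (Rnaset2-/- minus wild-type liver, log2 scale) was 5.07 for Lipg, 4.58 for Tmc3, 4.39 for Hs3st2, 4.38 for Lox, which encodes the collagen cross-linking enzyme lysyl oxidase, and 4.28 for AI606473. It was -7.15 for H2-M2, a class I-like gene, -6.57 for the lectin-like receptor Klri1, -6.53 for Apol7c, -6.26 for the calcium channel subunit Cacnb3, and -6.42 for Retnla, a gene of alternative activation. Retnla was at or under 0.154 RPM in all 6 Rnaset2-/- liver libraries, whereas wild-type hepatic Ly6C-low cells had 413 ± 21.8 RPM (SD, n = 3), so that its value depends on the added 1. Of the genes the study names, Nr1h3 stood at 3.57, Rxra at 2.84, Axl at 2.78, Ifih1 at 1.30, Ccr2 at -2.99 and Ifnb1 at -2.78. Since Ifnb1 was at or below the floor of 3 reads in every Rnaset2-/- Ly6C-low library of the liver, its value depends on the added 1 too. Xist was at 321 RPM or more in all 6 wild-type liver libraries and at 0.154 RPM or less in all 6 Rnaset2-/- liver libraries, so that sex and genotype cannot be told apart.

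Against Rnaset2-/- spleen, 1557 genes had a more positive and 1499 a more negative difference by the interaction test. The difference of the differences (liver minus spleen, log2 scale) was 5.99 for Lipg, 5.18 for Siglec1, 4.81 for Ptgs1, 4.77 for the cytokinesis protein anillin (Anln) and 4.73 for thymidine kinase Tk1. It was -6.89 for Camk2n1, an inhibitor of CaMKII, -6.41 and -6.20 for the plasma cell genes Jchain and Mzb1, -5.66 for Art3 and -5.63 for the erythroid carbonic anhydrase Car1. In spleen the B and plasma cell markers summed to 225 to 1406 RPM in Ly6C-low and to 113 to 152 RPM in Ly6C-hi. Erythroid markers summed to 68.4 to 1043 RPM and to 5.43 to 17.7 RPM. The part of such cells in these values was not tested. Of the genes the study names, Rxra stood at 2.28, Clec4f at 3.42, Tlr13 at 1.45, Mki67 at 3.68, Il10 at -2.09, Il6 at -2.02 and Ifnb1 at -1.96. Since Il6 and Ifnb1 were under 1 RPM in every Ly6C-low library of the liver, their values depend on the added 1. Groups of 3 libraries were not searched for single distant values.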

How the results depend on the processing

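Genes higher in Ly6C-low (953) numbered 1433 with the replicate block, 1641 in 1 fit of all 29 libraries, 258 to 1238 with 1 library left out, and 1498, 0 and 0 without replicate 1, 2 or 3 of both subsets. Genes lower (900) numbered 1702, 2000, 187 to 1086, and 1244, 0 and 0. The cause of these changes was not tested, except that fewer libraries entered the last fits. Genes with a larger difference than in wild-type liver (642) numbered 340 without scaling factors and 324 to 1107 with 1 library left out. Those with a smaller one (663) numbered 1134 with the replicate block, although the numbers of wild-type liver did not pair (correlations 0.318, -0.44 and -0.111), 1022 in DESeq2, and 363 to 1307 with 1 library left out. Against Rnaset2-/- spleen, larger differences (1557) numbered 1005 to 1829 and smaller ones (1499) 974 to 2027 with 1 library left out. The lowest of these came without spleen Ly6C-hi replicate 3 (1005 and 989) and without liver Ly6C-hi replicate 3 (974). With the replicate block, which drops spleen Ly6C-low replicate 4, they numbered 1223 and 1440. Tlr13, never called, had a log2 difference of 0.13 that turned to -0.0278 without scaling factors, -0.16 without Ly6C-hi replicate 1 (up to 0.45 without another library) and -0.24 without replicate 1 of both subsets. Over the other alternatives of the 153 named genes, 2017 values kept their side of the threshold, 652 fell short of it and 32 newly passed it, and of the genes reported here the block changed no call other than those given. At 3 reads per floor, depth limits statements on genes such as Ifnb1, and 3 libraries per subset limit the rest.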

Other observations

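Some genes outside the lists above differed between the subsets of Rnaset2-/- liver as strongly as those in them. Ptgs1, the constitutive cyclooxygenase, was at 445, 383 and 341 RPM in Ly6C-low replicates 1 to 3 and 35.9, 39.2 and 67.9 RPM in Ly6C-hi replicates 1 to 3, without overlap (log2 difference 3.22 ± 0.23, adjusted p = 0.00179 in limma). The 4 wild-type Kupffer cell libraries had 606 ± 189 RPM (SD) of Ptgs1. Tk1, which makes thymidine phosphate in S phase, was at 62.6, 91.9 and 42.3 RPM in Ly6C-low replicates 1 to 3 and 10.2, 11.9 and 9.54 RPM in Ly6C-hi replicates 1 to 3, again without overlap (log2 difference 2.62 ± 0.28, adjusted p = 0.00334). Siglec1, by which macrophages bind sialylated cells, was at 357, 131 and 70.1 RPM in Ly6C-low replicates 1 to 3 and 43.8, 23.0 and 16.4 RPM in Ly6C-hi replicates 1 to 3, with replicate 1 the highest in both subsets (log2 difference 2.65 ± 0.63, adjusted p = 0.0321), and at 751 ± 295 RPM in wild-type Kupffer cells. Lox was at 21.7, 163 and 111 RPM in Ly6C-low replicates 1 to 3 and 4.38, 4.48 and 5.69 RPM in Ly6C-hi replicates 1 to 3, with Ly6C-low replicate 1 well under replicates 2 and 3 (log2 difference 3.84 ± 0.67, adjusted p = 0.0132). The 4 genes were named by their place in the interactions with genotype or organ, so that their level in this comparison is a description.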
